A study of Bos taurus with 48 samples.

Results

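Mammary parenchyma, the part of the gland that carries the epithelial ducts, was compared with the mammary fat pad that surrounds it, in cattle fed milk replacer. The samples were chosen by their labels: all parenchyma and fat pad samples whose treatment was ad libitum (milk replacer without limit) or restricted (a limited amount of it), which gave 24 of the 48 samples of the series. Each tissue held 12 samples, 6 of each feeding group, and samples of the control feeding and of the liver were left out. The tissue was taken after slaughter and placed in RNA preservative, total RNA was made into small RNA libraries by adaptor ligation, and miRNA reads were counted. Age, breed and sex are not given in the labels used here, the labels do not say whether a number in a title stands for an animal, so that p-values here reflect only how the samples vary, which may be partly technical.

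MicroRNAs (miRNAs) are short RNAs cut from the 2 arms of a hairpin, the 5p and the 3p arm, and they lower the output of messenger RNAs that match their seed, the bases 2 to 8 from the 5′ end. Many miRNA genes lie in clusters that are transcribed together or inside the introns of protein genes. A number of them are made mainly in 1 lineage, such as the miR-200 family in epithelium and miR-126 in endothelium. In the growing mammary gland the ducts extend into the fat pad, so that the parenchyma holds epithelium together with stroma and vessels, and the fat pad holds adipocytes, vessels and connective tissue.

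The mature sequences of 7 miRNAs named in the results are shown because each stands for a cell type or a cluster described there. They are written as DNA letters from 5′ to 3′, with the seed in capitals, and were copied from the reference sequences of the study's isomiR sheet, which names them by the human assay. miR-375 is a miRNA of epithelium listed at 0 in the fat pad, miR-223 belongs to myeloid cells, miR-451 to red blood cells, miR-708 and miR-215 were higher in the fat pad, miR-433 lies in the imprinted DLK1-DIO3 cluster, and miR-100 is a neighbour of let-7. No seed is shared among them.
miR-375: tTTTGTTCgttcggctcgcgtga
miR-223: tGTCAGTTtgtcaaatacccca
miR-451: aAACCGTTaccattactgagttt
miR-708: aAGGAGCTtacaatctagctggg
miR-215: aTGACCTAtgaattgacagaca
miR-433: aTCATGATgggctcctcggtgt
miR-100: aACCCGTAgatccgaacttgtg

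The values are normalized read counts: reads per mature miRNA, scaled by the authors with 1 size factor for each library. The smallest value above 0 stood for 6 reads in each of the 24 libraries, so that a miRNA listed at 0 can have had up to 5 reads, equal to a value of at most 2.83 in parenchyma and 9.86 in the fat pad. The estimated reads ranged from 6193678 to 11291532 in parenchyma (median 8074550) and from 2123962 to 9522666 in the fat pad (median 6115032). The smallest library, fat pad ad libitum replicate 3, also had the highest miR-122 and miR-205 of the fat pad, and in parenchyma restricted replicate 10 miR-378-2 was listed at 0 beside its copy miR-378-1. Leaving out the former moved the counts of higher and lower miRNAs given next to 169 and 109, and leaving out both samples numbered 10 moved them to 168 and 110.

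Most miRNAs differed between the tissues. Of 336 miRNAs tested, those with a mean value of at least 10 over the 24 samples, 167 were higher in parenchyma (49.7%) and 110 were lower (32.7%), by limma on log2(value + 1) with an adjusted p below 0.05. Differences over 2-fold were found for 119 of the higher and 62 of the lower miRNAs, and differences over 8-fold for 30 and 9. The fitted size is no more than a guide for miRNAs at 0 in many samples of 1 tissue, since it depends on the pseudocount. The 12 parenchyma values all lay above the 12 fat pad values for 62 miRNAs (18.5%) and all below them for 50 (14.9%). Each list of miRNAs described in the following is to be read against these shares and against the median of the log2 fold changes over all tested, 0.37.

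The balance of higher and lower calls depended on the scaling. The values of a sample summed to 2903215 to 3691031 in parenchyma and to 4179652 to 5289796 in the fat pad. When all samples were brought to a sum of 1000000 the median log2 fold change was 0.70, and 171 miRNAs were higher and 68 lower of 279 tested, so that 71.5% of the calls were higher in place of 60.3%. Of the 94 miRNAs called lower and tested under both scalings, 68 were still lower, 23 did not pass and 3 passed as higher. All 136 called higher and tested under both stayed higher. The sums were larger in the fat pad, so this rescaling shifts log2 fold changes upward, apart from the pseudocount. That the higher calls stayed is thus no sign that they are firmer.

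**Figure D1:**
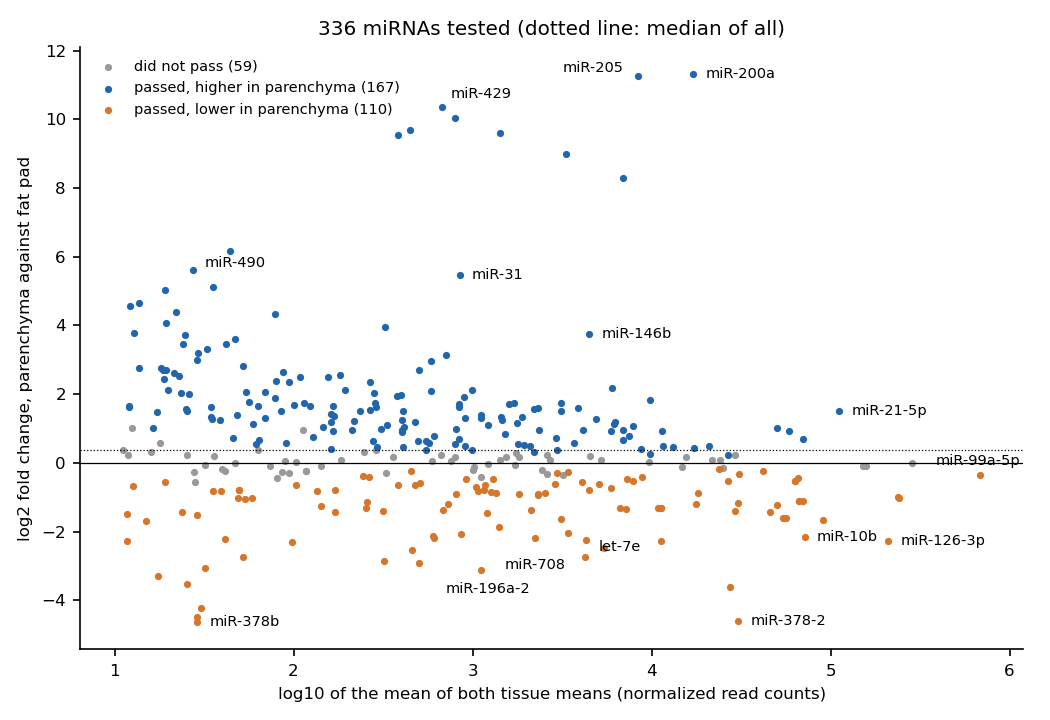
Log2 fold change of parenchyma against fat pad (vertical axis) against the log10 of the mean of both tissue means (horizontal axis) for the 336 miRNAs tested, 1 point each, coloured by call (limma, adjusted p below 0.05). The epithelial miRNAs miR-200a, miR-205 and miR-429 stand at the top with fitted values that depend on the pseudocount, the lower calls reach down to miR-378b at -4.62, and the dotted line is the median of all, 0.37, which became 0.70 when samples were rescaled to equal sums.

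The miRNAs of epithelial cells were among the most different, and all 11 listed were higher in parenchyma. miR-200c, which with the rest of its family represses the ZEB factors that turn off epithelial genes, ranged from 9102 to 20282 in parenchyma (median 13201) and from 8.97 to 195 in the fat pad (median 42.6). The groups did not overlap, and the log2 fold change was 8.29 (standard error 0.36, adjusted p = 5.49e-16, limma). miR-200a ranged from 24048 to 49508 (median 34202) against 0 to 84.8 (median 20.2). miR-200b ranged from 3945 to 10874 (median 5721) against 0 to 67.1 (median 15.2), and both were listed at 0 in 2 of the 12 fat pad samples.

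miR-141 and miR-429, the remaining members of the family, were listed at 0 in the whole fat pad. In parenchyma miR-141 ranged from 456 to 1533 (median 838) and miR-429 from 842 to 1968 (median 1273). The same held for miR-96 of the miR-183 cluster, a set of miRNAs of sensory cells and epithelia, which ranged from 465 to 1185 in parenchyma (median 802). Its neighbours miR-183 and miR-182 were listed at 0 in 10 and 6 of the fat pad samples and reached 25.02 and 34.7 in the others, whereas their lowest values in parenchyma were 1166 and 1835.

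miR-205, found in the basal layer of epithelia, ranged from 7907 to 37804 in parenchyma (median 14439) and from 0 to 74.9 in the fat pad (median 7.59). The highest value of both tissues was in the sample numbered 3, and the next highest were 24730 in parenchyma and 24.03 in the fat pad. miR-31 ranged from 1117 to 3187 (median 1346) in parenchyma and from 15.8 to 56.0 (median 38.7) in the fat pad, and was above 0 in all 24 samples. Its log2 fold change was 5.46 (standard error 0.18, adjusted p = 1.39e-18, limma). miR-375, a miRNA of secretory and endocrine epithelium, was the least abundant of the list, at 15.5 to 98.9 in parenchyma (median 29.7), and was listed at 0 in all 12 fat pad samples.

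Over the 11 epithelial miRNAs the mean of log2(value + 1) lay between 10.8 and 11.7 in parenchyma and between 0.86 and 3.17 in the fat pad. The label of the parenchyma thus matched these markers, but they were chosen with earlier results of these data known and are no independent check of it. The fitted fold changes of miRNAs at 0 in many fat pad samples depend on the pseudocount: for miR-205 the log2 fold change was 11.25 with a pseudocount of 1 and 9.64 with 10. In tissue samples such as these, fewer cells of a type and less RNA per cell cannot be told apart.

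Of 13 listed miRNAs with known roles in adipocytes, 10 were lower in parenchyma, 2 were higher and 1 did not pass. The largest differences were those of the miR-378 family. All 4 listed members were lower in parenchyma, at a median log2 fold change of -3.84. miR-378-1, encoded inside PPARGC1B (a coactivator of mitochondrial genes) in the RefSeq annotation, ranged from 1582 to 14005 in parenchyma (median 3393) and from 25097 to 74388 in the fat pad (median 54802). These groups did not overlap, and the log2 fold change was -3.61 (standard error 0.21, adjusted p = 6.26e-14, limma). For its copy miR-378-2 the log2 fold change was -4.60, and it was -3.57 without the samples numbered 10. In parenchyma restricted replicate 10 miR-378-2 was listed at 0, while a further copy name, miR-378, was at 2715 in that sample alone. The median of the family given above includes that 0. The copies share reads, and the gene of miR-378-2 lies within CALCR, the calcitonin receptor.

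The other members of the family were rarer and were lower as well. miR-378c ranged from 33.7 to 223 in parenchyma (median 63.2) and from 260 to 973 in the fat pad (median 547), a log2 fold change of -2.86 (adjusted p = 5.71e-12 by limma, standard error 0.21). miR-378b was listed at 0 in 6 parenchyma samples and did not exceed 9.67 there, against 20.9 to 111 in the fat pad. miR-378d was at 0 to 25.8 in parenchyma and 25.2 to 111 in the fat pad, so that its groups just touched.

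miR-193b and miR-365, a pair of neighbours that promote brown fat, were lower together. miR-193b ranged from 86.5 to 420 in parenchyma (median 242) and from 749 to 1294 in the fat pad (median 960), a log2 fold change of -2.13 (adjusted p = 2.56e-09 by limma, standard error 0.21). miR-365-3p and miR-365-5p had log2 fold changes of -1.87 and -2.73. None of these 3 overlapped between the tissues.

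miR-193a split by arm. miR-193a-5p was lower in parenchyma at 91.7 to 269 (median 126) against 495 to 1175 (median 792), whereas miR-193a-3p, at 14.7 to 48.7 and 0 to 101, had a log2 fold change of -0.07 (adjusted p = 0.885, limma). miR-455, known from brown fat and from cartilage, went the other way: miR-455-5p lay between 1158 and 3055 in parenchyma and between 557 and 1148 in the fat pad, a log2 fold change of 1.23 (adjusted p = 2.70e-08 by limma, standard error 0.14). In RefSeq the miR-455 gene lies within COL27A1, a cartilage collagen. miR-103-2 and miR-107, which act on insulin signalling, were lower by 0.52 and 0.29 on the log2 scale in the deposited scaling, and neither passed with samples rescaled to equal sums, where the log2 fold changes were -0.06 and 0.17.

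Of the endothelial miRNAs, both arms of miR-126 were lower in parenchyma. miR-126-3p, which sustains vascular signalling and lies within the endothelial gene EGFL7, ranged from 51886 to 104428 in parenchyma (median 70916) and from 251938 to 424674 in the fat pad (median 343752). The log2 fold change was -2.27 (standard error 0.10, adjusted p = 8.91e-16, limma), and -1.81 with samples rescaled to equal sums. miR-126-5p, from the less used arm, ranged from 683 to 2274 and from 2690 to 7460, a log2 fold change of -2.04. Neither arm overlapped between the tissues.

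The miRNAs of stroma and smooth muscle differed less, and not in 1 direction. miR-143 and miR-145, neighbours expressed in smooth muscle and fibroblasts, were lower in parenchyma without overlap: miR-143 ranged from 118701 to 202002 (median 151465) against 235093 to 487874 (median 297791). Its log2 fold change was -0.99 (standard error 0.11, adjusted p = 2.93e-08, limma), and that of miR-145 was -1.21. In the list of miR-199 and miR-214, fibroblast miRNAs, 1 of 5 was higher, 2 were lower and 2 did not pass. With samples rescaled to equal sums 3 were higher and none lower, so the direction of that list rests on the scaling.

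miRNAs of other cell types moved with the tissues as well. Of 3 erythroid miRNAs 2 were tested and both were lower in parenchyma. miR-486, whose gene lies within ANK1, ranged from 206 to 496 in parenchyma (median 323) and from 1012 to 1799 in the fat pad (median 1429), without overlap, and the log2 fold change was -2.08 (standard error 0.13, adjusted p = 4.53e-13, limma). miR-451 ranged from 350 to 1757 (median 520) and from 1012 to 2734 (median 1605), and the groups overlapped. The mean log2 level of the 3 erythroid miRNAs lay between 5.45 and 8.72 in parenchyma and between 6.71 and 8.63 in the fat pad. miR-144, from the same transcript as miR-451, was at 0 in 7 parenchyma and 9 fat pad samples. The part of blood in the results was not tested.

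The 7 immune cell miRNAs were divided, with 4 higher in parenchyma, 1 lower and 2 that did not pass, and rescaling raised the number higher to 6 and left 1 lower. miR-146b, which dampens inflammatory signalling and is not confined to immune cells, had the largest difference: it ranged from 4118 to 10836 in parenchyma (median 8965) and from 282 to 1549 in the fat pad (median 562). These groups did not overlap, and the log2 fold change was 3.75 (standard error 0.23, adjusted p = 1.62e-13, limma). Its relative miR-146a shares the seed region but ranged from 450 to 1295 and from 412 to 1102, a log2 fold change of 0.18 (adjusted p = 0.285, limma) that became 0.63 with rescaled samples, where it passed.

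miR-155, which rises when lymphocytes and macrophages are activated, was lower, at 128 to 316 in parenchyma (median 213) against 765 to 1253 in the fat pad (median 1001), and the log2 fold change was -2.19 (standard error 0.13, adjusted p = 1.83e-13, limma). miR-223 of myeloid cells lay between 104 and 269 in parenchyma and between 10.4 and 80.2 in the fat pad, a log2 fold change of 2.37. Both arms of miR-142, a miRNA of blood cells, were higher in parenchyma, with log2 fold changes of 1.32 for miR-142-5p and 1.55 for miR-142-3p, and overlapped. miR-150 of mature lymphocytes did not pass, at 416 to 1403 and 305 to 1085, though with rescaled samples it was higher (log2 fold change 0.51, adjusted p = 0.0293, limma). The immune markers thus did not move in 1 direction. Their mean log2 level lay between 8.81 and 9.97 in parenchyma and between 8.16 and 9.02 in the fat pad, and their part in the results was not tested.

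miRNAs of striated muscle and liver were read as well. Of 5 muscle miRNAs 3 were tested, 1 was higher and none lower. miR-133a was higher in parenchyma (log2 fold change 0.97, adjusted p = 1.10e-04, limma), whereas miR-1 ranged from 412 to 2298 and from 466 to 2820 and did not pass. miR-206, which is made in skeletal muscle, was listed at 0 in all parenchyma samples and reached 7.11 in the fat pad. miR-122, the main miRNA of hepatocytes, lay between 12.2 and 506 in parenchyma and between 0 and 3798 in the fat pad. The 3798 was in fat pad ad libitum replicate 3, and the next highest fat pad value was 667. The difference of miR-122 did not pass with that sample (log2 fold change 0.39, adjusted p = 0.714) or without it (0.90, adjusted p = 0.344, limma). Of the 4 liver miRNAs 2 were lower in parenchyma and 2 did not pass, and with rescaled samples 1 was higher and 1 lower. miR-215 was lower, at 84.9 to 352 against 199 to 783 (log2 fold change -1.41), and so was miR-194-2 (log2 fold change -0.66), which did not pass with rescaled samples.

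**Figure D2:**
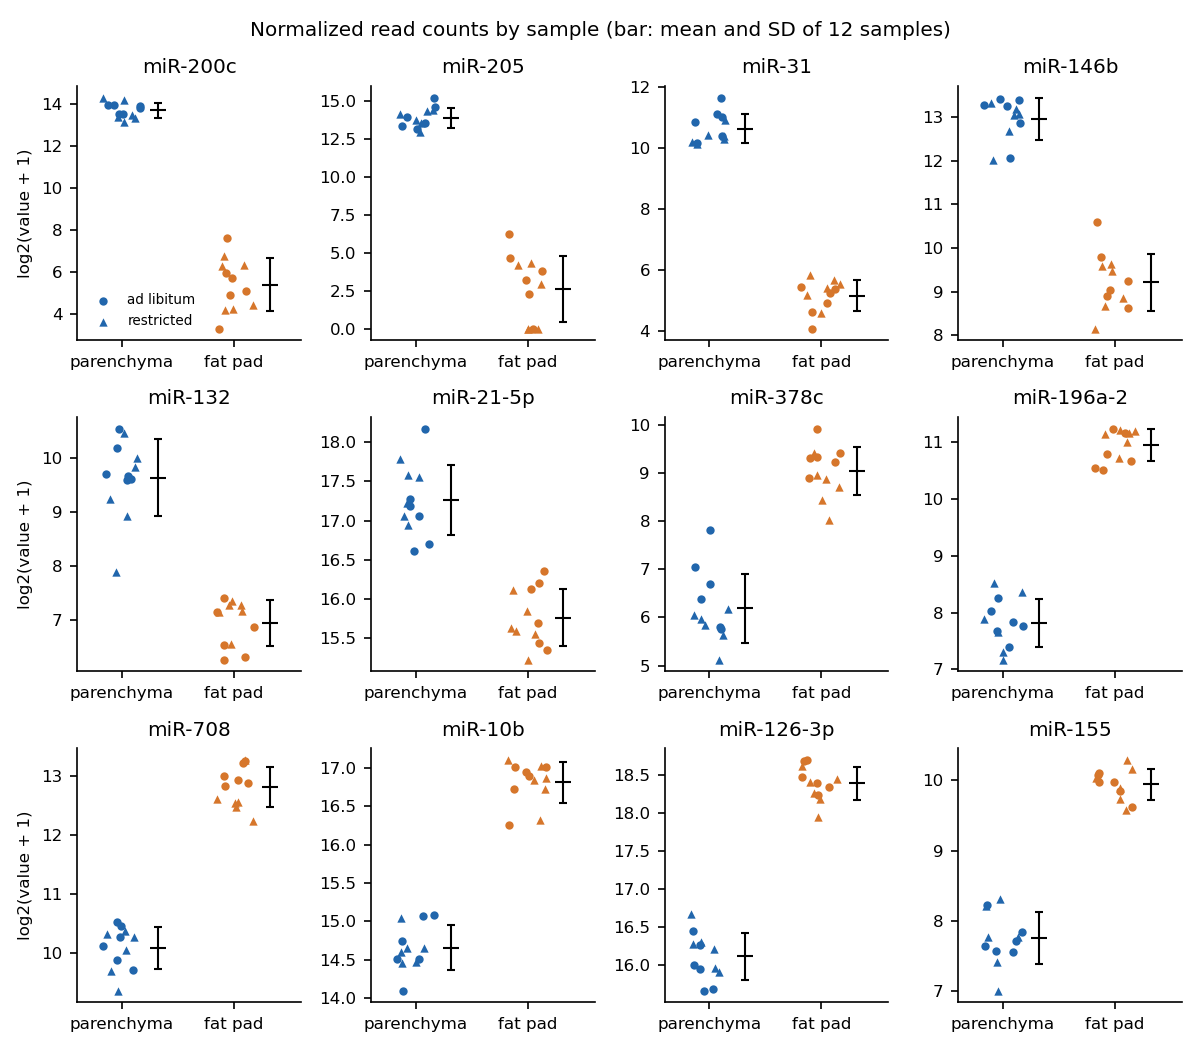
Normalized read counts as log2(value + 1) (vertical axes, which do not start at 0) of 12 miRNAs in each of the 24 samples, by tissue (colour) and feeding group (circle or triangle), with the mean and SD of each tissue as a black bar. miR-200c, miR-205, miR-31, miR-146b, miR-132 and miR-21-5p lay higher in every parenchyma sample than in any fat pad sample, and miR-378c, miR-196a-2, miR-708, miR-10b, miR-126-3p and miR-155 lay lower.

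The let-7 family, which restrains growth and marks differentiated cells, was lower in parenchyma almost throughout. Of 10 members tested 9 were lower and 1 was higher, with a median log2 fold change of -1.19, and the same 9 were lower with rescaled samples. let-7i ranged from 30377 to 57810 in parenchyma (median 42768) and from 97238 to 184734 in the fat pad (median 138066). The groups did not overlap, and its log2 fold change was -1.67 (standard error 0.12, adjusted p = 6.09e-12, limma). The largest difference was that of let-7e, at 952 to 2171 (median 1435) against 5266 to 9141 (median 7148), a log2 fold change of -2.25 (adjusted p = 1.76e-15 by limma, standard error 0.11).

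let-7b, let-7f-2, let-7g, let-7c and let-7a-2-5p lay between, with log2 fold changes of -1.42, -1.61, -1.22, -1.16 and -1.12. let-7d had -0.74 and miR-98, which shares the seed, -0.94. The groups overlapped for miR-98 alone among these 9. The member that was higher came from the other arm of the hairpin: let-7a-1-3p ranged from 1747 to 3965 in parenchyma (median 2564) and from 436 to 1353 in the fat pad (median 765), a log2 fold change of 1.74 (adjusted p = 2.32e-12 by limma, standard error 0.12). It does not carry the let-7 seed.

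The miRNAs encoded among the HOX genes, which set position along the body axis, were lower in parenchyma in all 4 cases. miR-10b, within HOXD4 in RefSeq, ranged from 17472 to 34611 in parenchyma (median 25323) and from 78555 to 141307 in the fat pad (median 120628), a log2 fold change of -2.15 (adjusted p = 2.83e-14 by limma, standard error 0.12). miR-10a, within HOXB3, ranged from 2330 to 6214 and from 12388 to 26601, a log2 fold change of -2.28. miR-196a-2 had the largest difference of these, at 143 to 367 (median 222) against 1456 to 2408 (median 2145), with a log2 fold change of -3.12 (adjusted p = 1.76e-15 by limma, standard error 0.15). The values of these 3 did not overlap between the tissues, whereas those of miR-196b did (log2 fold change -0.79).

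miRNAs known from proliferating cells were higher in parenchyma. Of 14 listed members of the miR-17-92 cluster and its relatives 13 were higher and 1 did not pass, with a median log2 fold change of 0.81. miR-93, which lies with miR-106b and miR-25 within MCM7, a gene of DNA replication, ranged from 3161 to 4229 (median 3549) against 1813 to 2554 (median 2259), without overlap, and its log2 fold change was 0.73 (standard error 0.08, adjusted p = 3.92e-09, limma). miR-17-5p ranged from 2395 to 4441 and from 1201 to 1980, a log2 fold change of 0.97. miR-25, the exception, had 0.02 (adjusted p = 0.848, limma), and 0.48 with rescaled samples, where it passed.

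miR-221 and miR-222, neighbours that lower the cell cycle inhibitor p27, were higher by nearly the same amount. miR-221 lay between 7324 and 9648 in parenchyma and between 2951 and 4797 in the fat pad, and miR-222 from 1454 to 3055 and from 788 to 1357. The log2 fold changes were 1.12 (standard error 0.08, adjusted p = 1.14e-11, limma) and 1.17 (standard error 0.12, adjusted p = 2.78e-09, limma).

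miR-21-5p, one of the most abundant miRNAs of growing and injured tissue, ranged from 100360 to 296183 in parenchyma (median 151169) and from 38162 to 84100 in the fat pad (median 51637). The log2 fold change was 1.51 (standard error 0.16, adjusted p = 6.41e-09, limma), without overlap. Its other arm, miR-21-3p, ranged from 11.1 to 45.1 in parenchyma and was listed at 0 in the whole fat pad. miR-34a and miR-34c, targets of p53, were both higher: miR-34a ranged from 394 to 786 against 88.9 to 262 (log2 fold change 1.94), and miR-34c from 26.2 to 165 against 0 to 15.0. miR-210, induced by low oxygen, ranged from 538 to 2728 and from 218 to 599, with a log2 fold change of 1.71.

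miR-132 and miR-212, neighbours induced by CREB signalling and known from the stroma of the mammary ducts, rose together in parenchyma. miR-132 ranged from 237 to 1503 (median 829) against 75.8 to 170 (median 141), without overlap and with a log2 fold change of 2.70 (adjusted p = 6.93e-11 by limma, standard error 0.22). miR-212 ranged from 43.6 to 256 (median 149) against 0 to 19.7 (median 7.65), and was listed at 0 in 2 fat pad samples.

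In the imprinted DLK1-DIO3 cluster, which is expressed from the maternal chromosome, 39 of 49 miRNAs tested were higher in parenchyma, none was lower and 10 did not pass. The median log2 fold change was 1.19, against 0.37 over all miRNAs tested, and with rescaled samples 39 of 40 were higher. For 10 of the 49 all parenchyma values lay above all fat pad values, a share near the 18.5% over all miRNAs tested. The members varied widely, from -0.40 for miR-432, which did not pass, to 3.94 for miR-665 among those above 0 in all samples. miR-665 ranged from 170 to 994 in parenchyma (median 663) and from 9.28 to 109 in the fat pad (median 38.2), with a standard error of 0.38 and an adjusted p of 1.00e-09 (limma).

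Of the abundant members, miR-127 ranged from 39354 to 114268 in parenchyma (median 77133) and from 25126 to 68383 in the fat pad (median 36793), a log2 fold change of 0.92. miR-411a ranged from 33463 to 104897 and from 23829 to 42608, a log2 fold change of 1.00, and miR-379 from 8693 to 28510 and from 10197 to 19911, a log2 fold change of 0.17 that did not pass (adjusted p = 0.320, limma). miR-493 ranged from 5176 to 14732 against 1434 to 3232, without overlap and with a log2 fold change of 2.19 (adjusted p = 4.52e-11 by limma, standard error 0.18). miR-433, whose sequence is given at the start, ranged from 550 to 2035 and from 136 to 1299, a log2 fold change of 1.30. miR-541 reached 42.4 in parenchyma and was listed at 0 in all fat pad samples.

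Other families moved down together or split. The list of miR-23, miR-24 and miR-27 had 6 lower of 7 tested and 1 that did not pass, and with rescaled samples 4 were lower and 1 was higher. miR-23a lay between 3537 and 9741 in parenchyma and between 10422 and 19946 in the fat pad (-1.32 as log2 fold change), without overlap, whereas miR-27a-3p, from the same cluster, ranged from 16266 to 34849 and from 16222 to 33851 (log2 fold change -0.14, adjusted p = 0.333, limma). All 3 of the list of miR-26 and miR-101 were lower, and 2 of them with rescaled samples. miR-26a and miR-26b, within the phosphatase genes CTDSP2 and CTDSP1, had log2 fold changes of -1.03 and -1.39. miR-335, within the imprinted gene MEST, ranged from 92.3 to 218 against 243 to 527 (log2 fold change -1.31). miR-224 and miR-452, within the receptor gene GABRE, had log2 fold changes of -0.90 and -1.38.

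miR-708, which lies within TENM4, ranged from 653 to 1468 in parenchyma (median 1164) and from 4798 to 9914 in the fat pad (median 7404). The groups were far apart, and the log2 fold change was -2.74 (standard error 0.13, adjusted p = 3.14e-15, limma). Its relatives miR-28 and miR-151-5p were lower by 0.88 and 1.20 on the log2 scale, and miR-151-3p did not pass, so that 3 of the 4 in this list were lower, but with rescaled samples miR-151-3p was higher (0.56). In the miR-148 list, miR-148a did not pass (log2 fold change -0.01, and 0.45 with rescaled samples, where it passed), miR-148b was higher (0.67) and miR-152, within COPZ2, was lower (-1.32).

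In the miR-30 list 2 of 7 were higher, 3 were lower and 2 did not pass, in the miR-29 list 1, 2 and 3 of 6, and in the miR-181 list 1, 1 and 2 of 4. These counts rest on the scaling as well: after rescaling, 4 of 6 tested were higher in the miR-30 list and 1 lower, 1 and 1 of 4 in the miR-29 list, and 3 and 1 of 4 in the miR-181 list. miR-29b and miR-29e had identical values in all samples and are not independent. miR-29a lay between 5508 and 15813 in parenchyma and between 2220 and 7869 in the fat pad (0.97 as log2 fold change), whereas miR-29c ranged from 4.22 to 27.1 and from 35.04 to 107 (log2 fold change -2.22). Of miR-130 and miR-301, miR-130a was lower (-0.79) and miR-130b higher (2.71), the latter at 0 in 4 fat pad samples. In the list of miR-99, miR-100 and miR-125 2 of 6 were higher, 3 were lower and 1 did not pass, but with rescaled samples 4 were higher and none was lower, so no direction is given for it. miR-100 ranged from 25013 to 50018 and from 36383 to 54629, with a log2 fold change of -0.25 in the deposited scaling and 0.22 in the rescaled samples, both of which passed.

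**Figure D3:**
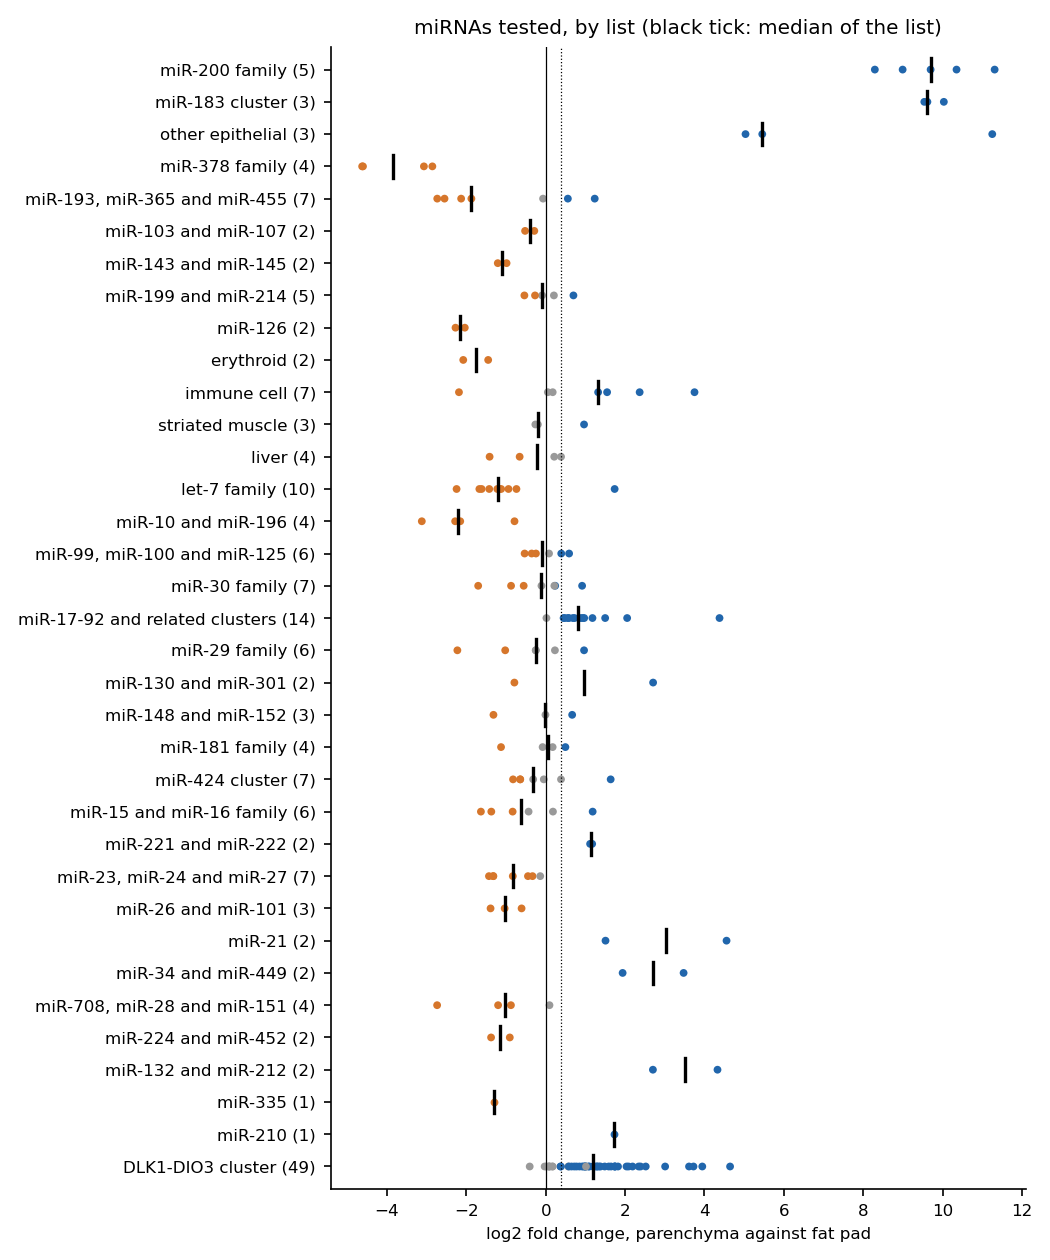
Log2 fold change of parenchyma against fat pad (horizontal axis) for the tested miRNAs of 35 lists (rows, with the number tested), blue where higher, orange where lower and grey where the test was not passed, with the median of each list as a black tick. The epithelial lists lie at the right, at fitted values between 5.03 and 11.31 that depend on the pseudocount. The miR-378 family lies at the left, at a median of -3.84 that includes miR-378-2, listed at 0 in parenchyma restricted replicate 10. The dotted line is the median of all miRNAs tested, 0.37. Points near 0, such as those of the miR-99, miR-100 and miR-125 list, change side when samples are rescaled to equal sums.

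Some miRNAs outside the lists were among the largest differences. miR-1247-5p ranged from 11.3 to 187 in parenchyma (median 81.3) and miR-490, within the muscarinic receptor gene CHRM2, from 11.6 to 112 (median 54.8), and both were listed at 0 in the whole fat pad. miR-147, within C10H15orf48, ranged from 25.3 to 124 in parenchyma (median 66.8) and was listed at 0 in 8 fat pad samples, with a highest value of 6.54. With miR-1247-5p and miR-490, and with miR-141, miR-429, miR-96, miR-375, miR-21-3p, miR-541 and a further copy name of miR-378, 9 tested names were at 0 in all 12 fat pad samples, and none was at 0 in all 12 parenchyma samples. That further name, miR-378, was above 0 in parenchyma restricted replicate 10 alone.

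Among the lower ones, miR-139, within the phosphodiesterase gene PDE2A, ranged from 1021 to 3028 in parenchyma (median 1634) and from 7277 to 11388 in the fat pad (median 9337), a log2 fold change of -2.48 (adjusted p = 6.26e-14 by limma, standard error 0.14). miR-2483-5p ranged from 14.6 to 67.3 and from 116 to 233, and miR-2483-3p from 0 to 9.93 and from 26.4 to 109, and their gene lies within TENM1, a relative of the TENM4 that holds miR-708. miR-6715 was listed at 0 in 9 parenchyma samples and ranged from 8.33 to 144 in the fat pad. There it lay between 29.2 and 144 in ad libitum and between 8.33 and 21.8 in restricted samples. None of these 4 overlapped between the tissues.

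Neighbouring miRNA genes were compared with each other. In RefSeq (assembly ARS-UCD2.0) the tested miRNAs, matched by name, formed 36 groups of 2 or more genes at most 10000 bases apart. In 16 of them all members passed in 1 direction, 9 higher and 7 lower, and in 6 members passed in both directions. With rescaled samples members passed in both directions in 9 groups, 4 of them among those 6. For let-7a-1 with let-7d, let-7c with miR-99a and the miR-424 cluster, the member that was higher was let-7a-1-3p, miR-99a-3p or miR-503-5p. Each is 1 arm of a hairpin whose other arm was lower in the deposited scaling. The reads of let-7a-1-5p cannot be divided among the let-7a genes. With rescaled samples miR-99a-5p did not pass (log2 fold change 0.11), and no member of the miR-424 cluster was lower. miR-221 with miR-222, and miR-143 with miR-145, differed between the tissues by log2 fold changes within 0.05 and 0.22 of each other.

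Some of the clearest splits involved let-7. The pairs in the following were chosen after their values were seen and are given without a test. let-7e lies beside miR-99b and miR-125a. Within each sample the log2 value of let-7e minus that of miR-99b lay between -3.27 and -1.66 in parenchyma and between -0.30 and 0.18 in the fat pad, without overlap. let-7e fell by 2.25 on the log2 scale, whereas miR-99b rose by 0.39 (adjusted p = 0.00111, limma) and miR-125a had 0.08 (adjusted p = 0.655, limma). let-7c beside miR-99a-5p, and let-7a-2-5p beside miR-100, differed in the same sense but with overlap: the means of the within-sample differences changed by -0.81 and -0.88.

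The miR-15 and miR-16 family split as well, though its members share a seed: 1 of 6 was higher, 3 were lower and 2 did not pass, and with rescaled samples 2 were higher and 3 lower. miR-15b lay between 441 and 871 in parenchyma and between 226 and 379 in the fat pad (1.18 as log2 fold change), and its neighbour miR-16b, with which it lies within the chromosome condensation gene SMC4, from 457 to 1268 and from 1138 to 1694 (log2 fold change -0.83). Within a sample miR-15b minus miR-16b lay between -1.41 and 0.93 in parenchyma and between -2.58 and -1.83 in the fat pad. miR-195 was lower, at 1018 to 2468 against 3740 to 7194 (log2 fold change -1.63), and its neighbour miR-497 had 0.18 (adjusted p = 0.139, limma). Their within-sample difference ranged from -0.84 to 0.47 and from 1.34 to 2.08. Near-identical members such as miR-16a and miR-16b can share reads, so their separate values are uncertain.

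**Figure D4:**
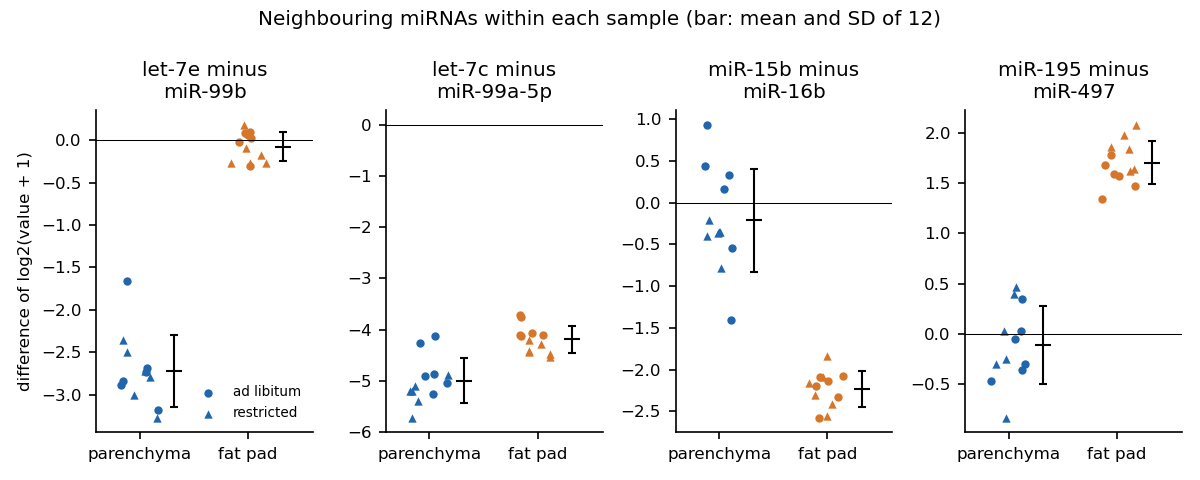
Difference of log2(value + 1) between neighbouring miRNAs within each sample (vertical axes), for let-7e minus miR-99b, let-7c minus miR-99a-5p, miR-15b minus miR-16b and miR-195 minus miR-497, by tissue (colour) and feeding group (circle or triangle), with the mean and SD of each tissue as a black bar. The tissues do not overlap for let-7e with miR-99b, for miR-15b with miR-16b and for miR-195 with miR-497, and overlap for let-7c with miR-99a-5p.

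The balance between the arms of a hairpin also differed between the tissues. It was taken as log2(5p value + 1) minus log2(3p value + 1) within a sample, which does not depend on the scaling of the sample, apart from the pseudocount. Of 25 hairpins with both arms at a mean of at least 10, 7 had relatively more 5p in parenchyma (28% of those tested) and 14 relatively more 3p (56%), with an adjusted p below 0.05 by limma. The balance did not overlap between the tissues for 8 hairpins. In none did the median sign of the balance change between tissues, that is, the more abundant arm was the same in both. For 5 hairpins (let-7a-1, let-7a-3, miR-423, miR-503 and miR-99a) the single arms passed the test between the tissues in opposite directions in the deposited scaling. Unlike the balance, these calls depend on the scaling. With samples rescaled to equal sums miR-423-5p (log2 fold change -0.14) and miR-99a-5p (0.11) did not pass, and miR-503-3p was not tested. The arms of let-7a-1 and let-7a-3 still passed in opposite directions.

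The largest change was that of let-7a-1, whose balance ranged from 2.86 to 4.96 in parenchyma (median 4.06) and from 6.10 to 7.75 in the fat pad (median 6.81), a difference of -2.84 (standard error 0.17, adjusted p = 2.41e-13, limma). let-7a-3 had -2.82. These are not independent, since the 5p arm of let-7a is the same at several genes and its reads cannot be divided among them, and the 3p names are close to each other in value. miR-503 changed the other way. In its cluster with miR-424 1 of 7 mature miRNAs was higher, 3 were lower and 3 did not pass, but with rescaled samples 2 of 5 were higher and none was lower. The balance of miR-503 lay between 3.41 and 4.91 in parenchyma and between 0.43 and 3.07 in the fat pad, a change of 2.46 (standard error 0.27, adjusted p = 1.75e-08, limma). miR-503-5p, which shares much of its seed with miR-16, ranged from 239 to 591 and from 58.9 to 311, and miR-503-3p from 8.90 to 34.7 and from 17.1 to 107.

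In the hairpin of miR-423 the 3p arm was the more abundant, and its balance lay between -3.11 and -2.33 in parenchyma and between -1.74 and -0.63 in the fat pad (a change of -1.54, standard error 0.12, adjusted p = 2.87e-11, limma). miR-423-3p was higher in parenchyma by 0.93 on the log2 scale and miR-423-5p was lower by 0.60. miR-331 (-1.22) and miR-151 (-1.29) moved the same way without overlap. miR-199a-1 moved toward 5p by 0.79, as miR-199a-1-5p was higher in parenchyma (62562 to 109883 against 38362 to 68357) while miR-199a-1-3p did not pass (log2 fold change -0.09). miR-99a, with 3p values of 492 to 972 against 304 to 622 beside a far more abundant 5p arm, moved by -0.94. miR-6119 (-1.58) and miR-411c (-1.14) completed the 10 hairpins with the lowest p, and their groups overlapped.

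For miR-126, miR-142, miR-424 and miR-425 the difference did not pass, at 0.23, -0.23, 0.00 and 0.03 (standard errors 0.12, 0.24, 0.24 and 0.12). Both arms of each of these hairpins had themselves passed between the tissues, in the same direction, in the deposited scaling. With rescaled samples neither arm of miR-424 passed.

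**Figure D5:**
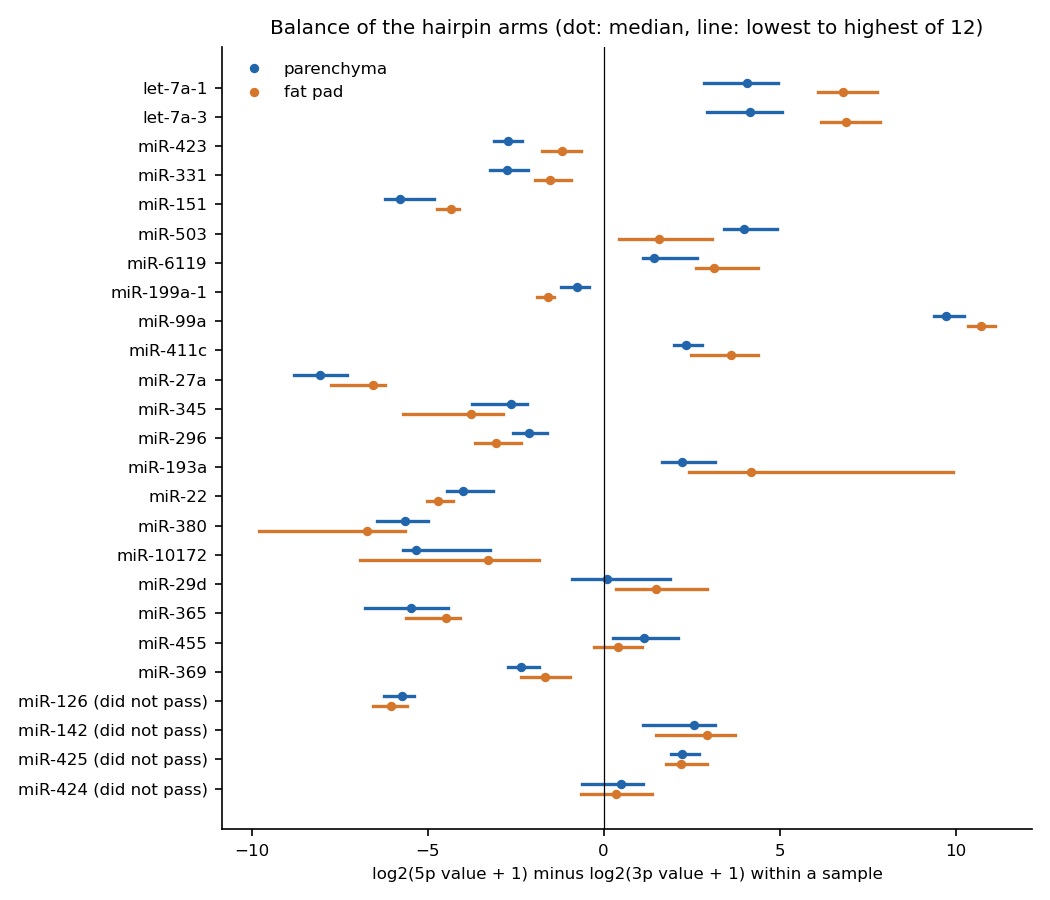
Balance of the arms, log2(5p value + 1) minus log2(3p value + 1) within a sample (horizontal axis), for the 25 hairpins tested, in order of their p, with the median of the 12 samples of a tissue as a dot and the lowest to highest sample as a line. let-7a-1 and let-7a-3 lie further left in parenchyma (medians 4.06 and 4.14 against 6.81 and 6.89), miR-503 further right (3.99 against 1.58), and the 4 hairpins at the bottom did not pass.

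The most abundant miRNAs took a smaller share of the values in parenchyma. The 10 highest of each sample, with numbered copies counted once, made up 61.4% ± 3.51 (SD, n = 12; 55.4 to 66.7) in parenchyma and 66.4% ± 2.15 (SD, n = 12; 63.0 to 68.9) in the fat pad. The difference was -4.98 percentage points (two-sided permutation test, p = 0.00043). With copies counted separately, a setting added after the data were seen, it was -2.05 points and did not pass (permutation test, p = 0.137).

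By mean value miR-99a-5p came first in both tissues, at 454222 to 805704 in parenchyma (median 584039) and 447241 to 1141744 in the fat pad (median 715294). It was lower in parenchyma by 0.35 on the log2 scale, and had 0.11 with rescaled samples (adjusted p = 0.258, limma). In parenchyma it was followed by miR-148a, miR-21-5p, miR-26a, miR-143, both arms of miR-199a-1, miR-127, miR-126-3p and miR-411a. In the fat pad the next were miR-126-3p, miR-26a, miR-143, miR-148a, miR-199a-1-3p, let-7i, miR-10b, let-7a-2-5p and let-7f-2. miR-21-5p, miR-199a-1-5p, miR-127 and miR-411a were thus among the 10 in parenchyma only, and let-7i, miR-10b, let-7a-2-5p and let-7f-2 in the fat pad only. All 8 passed the test between the tissues in the matching direction, but they were picked by their levels in these same samples. Of all 336 miRNAs tested, 82.4% passed.

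Whether the tissues differed to another extent in ad libitum than in restricted animals was tested as an interaction. None of the 336 miRNAs passed by limma (0% called), and 31 had an unadjusted p below 0.05. The lowest adjusted p, 0.0843, belonged to let-7a-1-3p and let-7a-3-3p. In ad libitum animals let-7a-1-3p had a mean of 2305 ± 419 in parenchyma and of 977 ± 217 in fat pad samples (SD, n = 6 each). In restricted animals the means were 2877 ± 577 and 614 ± 120 (SD, n = 6 each). The log2 fold change was thus 1.25 in the former and 2.23 in the latter, a difference of -0.99 (standard error 0.24). Both passed with samples rescaled to equal sums and by the median of ratios, and without the samples numbered 10.

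miR-339a, miR-652 and miR-2484 were next, with interactions of 0.83, 0.74 and 1.14 on the log2 scale (adjusted p = 0.132, 0.135 and 0.278, limma). For miR-339a the log2 fold change was 0.72 with ad libitum feeding and -0.10 with restricted feeding, and for miR-652 0.42 and -0.33. With the ad libitum samples alone 153 miRNAs were higher and 93 lower in parenchyma, and with the restricted samples alone 150 and 97.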

How the data were processed

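The authors deposited 1 table of normalized read counts per mature miRNA (other columns, such as their fold changes, were not used). Per the labels the submitters' processing used DESeq2, Trim Galore, FastQC and bcl2fastq (no versions listed). The program that assigned reads and the genome build were not given in the sources used here. Deposited values (normalized counts) are counts divided by 1 size factor per library: in all 24 libraries they were whole multiples of 1 step (tolerance 0.01), the smallest being 6 steps. Steps gave the estimate of reads, an upper one, since 42 of the 524 names are numbered copies (19 groups) that can count the same reads.

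Tissues were compared by a fit in limma 3.58.1 (R 4.3.3) of log2(value + 1) on tissue, feeding group and their interaction, with a variance trend, over miRNAs with a mean of at least 10 (Benjamini-Hochberg, adjusted p below 0.05); the arm balance used the same terms without the trend, over hairpins with both arms at that mean. The share of the 10 most abundant miRNAs was compared with a permutation test in Python 3.11.15 (100000 resamples, two-sided). Samples with the same number were not treated as pairs, and 60 pairs of samples of a group all differed by more than counting error. Depth limits low values only: counting intervals were not computed, as the values are not independent molecules.

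Named miRNAs are the members of 35 lists, the 15 largest differences in each direction that passed (mean 50 or more in the higher tissue), the 10 most abundant of each tissue, and the lowest p of the interaction (5) and of the arm balance (10). Others are named where a sentence says so or where they are neighbours or relatives of these. A list name was matched after removing species, arm and copy number, and copies of 1 mature miRNA were counted once. The samples and lists were chosen with earlier results of these data known. Host genes and neighbours come from RefSeq, in which 493 of the 524 names were matched.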

Additional observations from a re-analysis of the deposited data

Results flagged for a closer look

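Library size, the share of the 10 most abundant miRNAs and the mean log2 level of 8 marker lists were examined in each of the 4 groups of 6 samples for 1 sample far from the others (Dixon's ratio, 40 examinations, of which chance flags about 1 in 20). 1 was found: in fat pad restricted replicate 10 the mean log2 level of the erythroid markers was 8.63, against 6.71 to 7.10 in the other 5. This sample had miR-451 at 2734, the highest of the fat pad, and miR-144 at 12.8, against 0 in the other 5. The flag thus rests in part on a miRNA near the smallest values listed. miR-486 at 1639 lay within the range of the other fat pad samples. Without both samples numbered 10 the log2 fold change of miR-451 was -1.31, against -1.45 with them, and it still passed.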

How the results depend on the processing

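Leaving out fat pad ad libitum replicate 3 or both samples numbered 10, counting copies once and counting copies separately were alternatives chosen after the data were seen. The counts of higher (129 to 231) and lower (91 to 117) miRNAs stayed within 1.5 times those reported under 12 alternatives, except the 68 lower with samples rescaled to a sum of 1000000. Among miRNAs named singly in the report that passed with or without that rescaling, it turned some log2 fold changes. They were those of miR-100 (0.22), miR-107 (0.17), miR-148a (0.45), miR-199a-1-3p (0.37), miR-27a-3p (0.32) and miR-99a-5p (0.11). The restricted samples alone turned that of miR-339a (-0.10). The cause was not tested. For the 123 miRNAs named in the report and tested, 1407 of the log2 fold changes under the alternatives passed in the same direction or again did not pass. A further 17 newly passed and 12 no longer passed. A change of sign was not counted where neither fit passed. With rescaled samples this was so for miR-1, miR-432 and miR-29b, among others (0.26, 0.06 and 0.20).

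The interaction passed for 1 miRNA with a pseudocount of 10 (miR-6715, -1.83), for 2 with either rescaling and for 2 without the samples numbered 10. With a mean of at least 50, which left 16 hairpins, the arm balance passed for 3 toward 5p and 9 toward 3p. The share of the 10 most abundant was -4.70 points with the top 5, -6.43 with the top 20, -5.42 and -4.54 within the ad libitum and restricted samples, and -2.05 with copies counted separately, where alone it did not pass.

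Same-numbered samples of the tissues had correlations of their deviations from -0.10 to 0.48. Compared with the 6 fat pad samples of its feeding group, a parenchyma sample correlated best with its own number in 5 of 12 cases. That is more than random matching would give, so pairing stays possible. Most numbers did not match best, and the labels do not say that a number is an animal, so the numbers were not taken as pairs. With the replicate block 170 miRNAs were higher and 110 lower (167 and 109 of them shared with the fit without it), 0 passed the interaction, 7 and 14 hairpins passed, and the share differed by -4.98 points (exact permutation test over sign flips, p = 0.000488). Depth limits the miRNAs near 0, most of all in the fat pad.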

Other observations

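The samples numbered 3 had the highest miR-122 and miR-205 of both tissues. miR-122 was 506 in the parenchyma and 3798 in the fat pad sample, and the highest in the other samples of these tissues were 295 and 667. miR-205 was 37804 and 74.9 in them, and the highest in the others were 24730 and 24.03. miR-200a and miR-200c were the highest of the fat pad in that sample (84.8 and 195), but not of the parenchyma (29107 and 11983). Without the fat pad sample the log2 fold changes of miR-205 and miR-200c were 11.54 and 8.51.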
